A study of Mus musculus with 2 samples.

Results

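Fos, Fosb, Jun, Junb, Jund, Egr1, Atf3, Ier2, Dusp1 and Zfp36 are immediate early and stress response genes, and their unique molecular identifier (UMI) counts are described here across the cell types and differentiation stages of newborn mouse epidermis. The 10 members were taken by symbol from the 27998 genes counted in both libraries, and each had at least 1 UMI in both. The cells came from the epidermis of 2 male Chrm3 KO C57BL/6J mice at postnatal day 0 (P0), named KO mouse 1 and KO mouse 2, with 1 single-cell RNA library per mouse. Both mice lack Chrm3, a muscarinic acetylcholine receptor, so no effect of the genotype was tested, and WT libraries were not analysed here. Skin was kept overnight in a separation buffer, the epidermis was peeled off and passed through a filter, and dead cells were removed before capture. All cells went through these steps, so the level of a member in the intact tissue and a response to the preparation cannot be told apart.

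Immediate early genes are transcribed within minutes of a stimulus such as a growth factor, wounding or cell stress, without new protein synthesis, and most of their messages are short-lived. Fos and Jun proteins pair through leucine zippers to form AP-1, a transcription factor that acts on many keratinocyte (KC) genes, in both proliferation and differentiation. The same genes are widely known to come on when solid tissue is dissociated into single cells, which makes them a common quality mark in such data.

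The members lie on autosomes of GRCm38 (mm10), by the GENCODE M21 annotation. Fos is at chr12:85473890-85477273 on the plus strand, Fosb at chr7:19302696-19310051 on the minus strand, Zfp36 on the same chromosome at chr7:28376784-28380253 on the minus strand, and Dusp1 at chr17:26505590-26562128 on the minus strand. Jun, at chr4:95049034-95052222 on the minus strand, Jund, at chr8:70698949-70700616 on the plus strand, and Ier2, at chr8:84661331-84662852 on the minus strand, have a single exon. Junb is at chr8:84974484-84978718 and Atf3 at chr1:191170296-191218039, both on the minus strand. RefSeq's table of promoters on GRCm38.p6, which spans 250 bases before to 50 bases after the start of each gene, held 8 of the 10 members (not Egr1 and Ier2). The stretches below are examples that hold the letters known from the response elements of immediate early genes. Not shown are a further TGACG in each of the Fos and Dusp1 promoters, and that of Atf3, which overlaps an Atf3 exon. Capitals mark a cyclic AMP response element core (TGACG, searched on both strands), the full palindrome TGACGTCA that contains the core on both strands, or a CArG box, the element that serum response factor binds. Each run is printed on the strand of the gene, with its position.
Fos promoter, chr12:85473814-85473838: ttccgcccagTGACGtaggaagtcc
Fosb promoter, chr7:19310091-19310115: gagttgcgggTGACGcaagcgcggg
Junb promoter, chr8:84978840-84978864: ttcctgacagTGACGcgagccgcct
Dusp1 promoter, chr17:26508598-26508625: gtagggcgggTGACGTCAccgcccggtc
Zfp36 promoter, chr7:28379267-28379296: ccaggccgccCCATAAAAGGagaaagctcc

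The core TGACG was found in 5 of the 8 member promoters (Fos, Fosb, Junb, Dusp1 and Atf3) and in 20.8% of all 32851 promoters of the table. The palindrome stood only in that of Dusp1 among the 8, against 1.79% of all promoters, and the CArG box only in that of Zfp36, against 1.63%. The AP-1 element TGANTCA was in none of the 8 and in 7.81% of all promoters. The runs at Fos, Fosb and Junb overlap no annotated gene, that at Dusp1 lies within the annotated Dusp1 gene outside its exons, and that at Zfp36 overlaps an untranslated exon of another Zfp36 transcript. These matches describe the letters in a 300-base window and show no binding. Elements outside the window were not searched, so a missing match does not show that a gene lacks the element.

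Chrm3 itself had 13 UMIs in KO mouse 1 and 19 in KO mouse 2, or 0.137 and 0.128 CPM, the UMIs of a sum scaled to an equal total. Since a 3' tag may lie outside the deleted part, this does not check the labels. The libraries held 109756784 and 166441732 UMIs in 10816 and 15867 barcodes, of which 7607 and 11881 cells passed limits on genes and mitochondrial UMIs, with medians of 10480 and 10577 UMIs. The libraries shared 127 barcodes, 34 of them kept in both. Clusters were named from fixed markers, and the members and related genes were held out of the clustering. They gave 3154 and 5278 interfollicular epidermal (IFE) KCs (KO mouse 1 and KO mouse 2), 2757 and 4314 hair follicle-like KCs, 437 and 728 melanocyte-like cells, 144 and 193 Langerhans cell-like cells, 97 and 148 sebaceous-like cells, 39 and 69 dermal-like cells, 52 and 38 T cell-like cells, and 19 of each Merkel cell-like. Within the IFE, 879 and 1510 cells were resting basal, 695 and 1297 dividing basal, 237 and 394 transitional, 303 and 355 differentiated and 44 and 50 terminally differentiated. The other IFE cells, in clusters without a stage name, were left out of the stage comparisons. The terminally differentiated cells of the mice differed in depth, with medians of 4596 and 8970 UMIs, and other stages did not differ by as much.

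Levels are given as CPM of the UMIs summed over a class in each mouse. By the mean of the mice, resting basal IFE cells were highest among 12 classes for 7 of the 10 members (Fos, Jun, Jund, Egr1, Atf3, Ier2 and Dusp1), Langerhans cell-like cells for Fosb and Zfp36, and T cell-like cells for Junb. Jun and Jund in resting basal cells and Zfp36 in Langerhans cell-like cells stood clear of the next class in both mice, and the other 7 leading classes overlapped with the next. Melanocyte-like cells were lowest for 7 members. The order among the low classes differed in part with cells called doublets (droplets with more than a single cell) left out. The plot of levels shows this order for each gene.

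**Figure D1:**
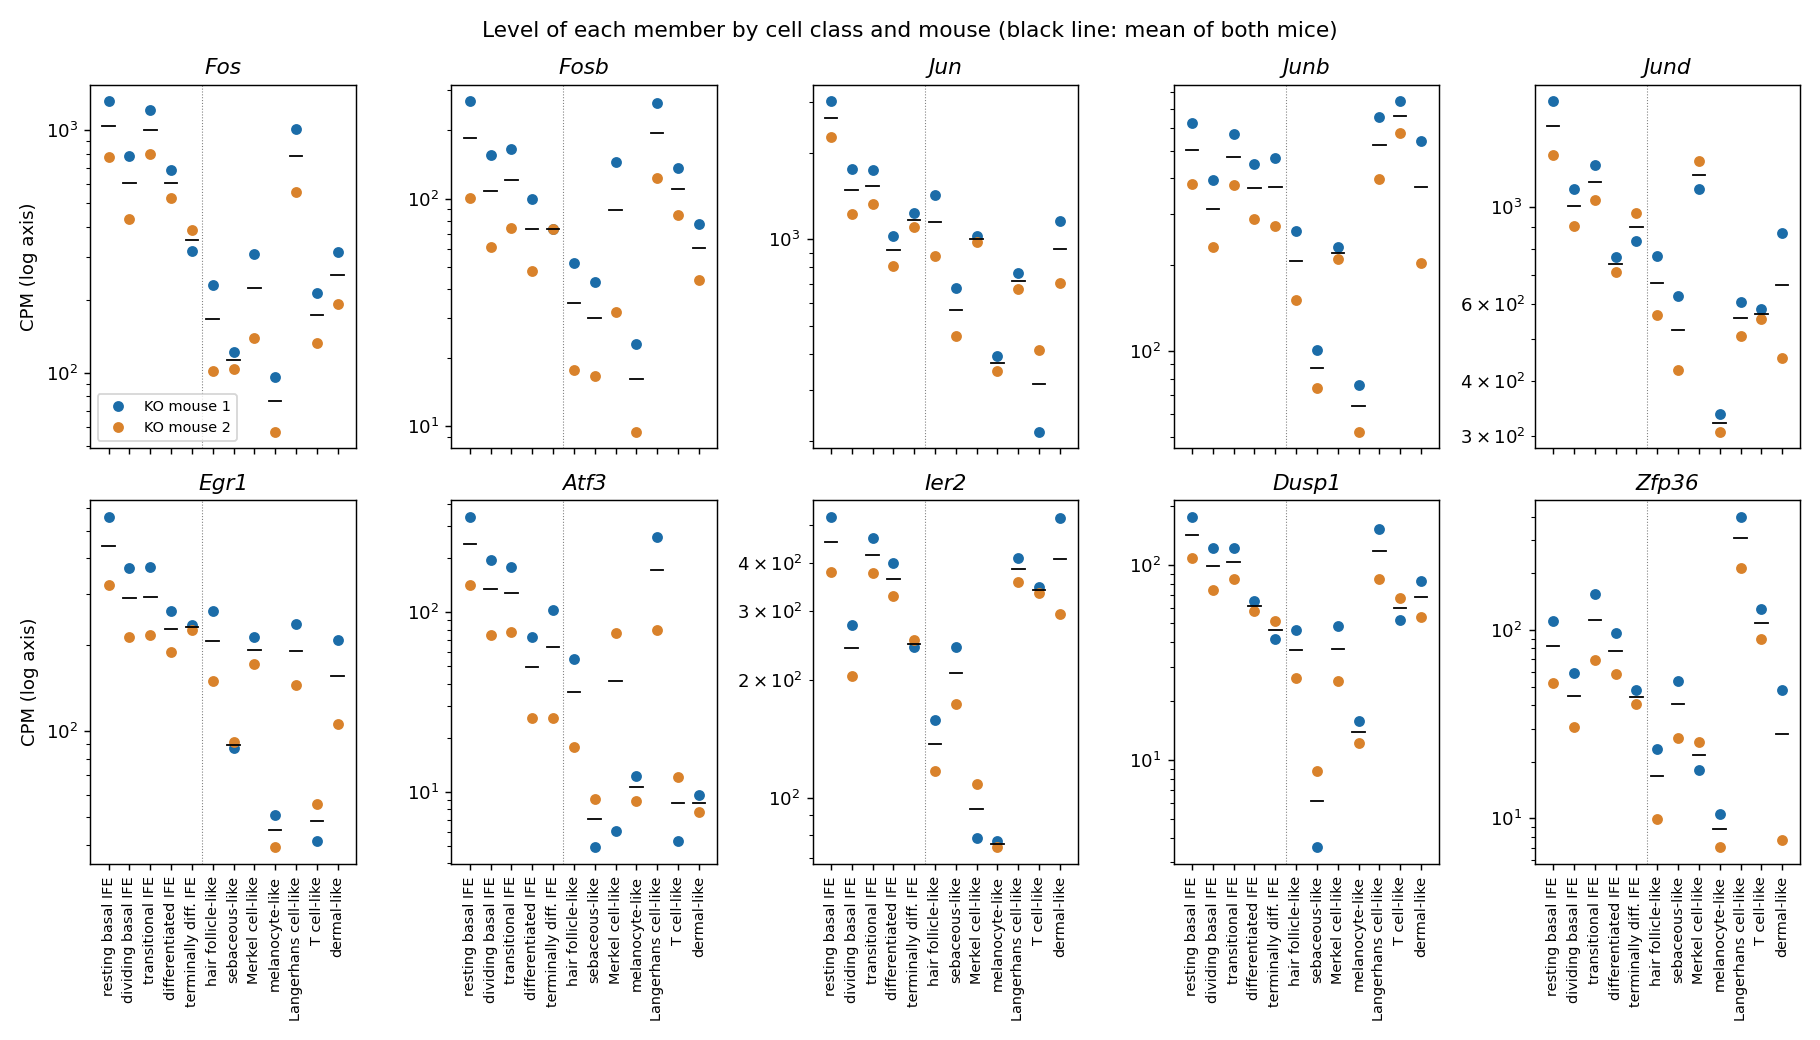
Each panel plots the CPM of 1 member (vertical, log axis) in 12 cell classes (horizontal), with a point for each KO mouse and a line at their mean; a dotted line parts the IFE stages from the other classes. Resting basal IFE points are the highest for Jun (3014 and 2259 CPM), Zfp36 is highest in Langerhans cell-like cells (399 and 215 CPM), and melanocyte-like cells are near the bottom of each panel.

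Fos, the AP-1 subunit that gave the family its name, was at 1311 CPM in resting basal cells of KO mouse 1 and 773 CPM in those of KO mouse 2. It was at 1211 and 793 CPM in transitional cells, and at 686 and 526.5 CPM in differentiated cells. The resting and transitional values overlapped between the mice, whereas both differentiated values lay under both resting values. Terminally differentiated cells had 318 and 387 CPM, hair follicle-like KCs 229 and 102 CPM, and melanocyte-like cells 96.4 and 57.3 CPM. Langerhans cell-like cells, the antigen-presenting cells of the epidermis, had 1005 and 555 CPM and overlapped with the basal KCs. At an equal depth of 3000 UMIs per cell, Fos was seen in 88.5% and 72.1% of resting basal cells (875 and 1451 cells had that depth), in 32.5% and 18.0% of hair follicle-like KCs (2730 and 4241 cells) and in 13.9% and 10.6% of melanocyte-like cells (424 and 717 cells). Without thinning these shares were 97.3% and 88.7%, 57.8% and 39.4%, and 24.9% and 21.6%.

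Fosb, a close relative of Fos, had its highest means in Langerhans cell-like cells (263 and 123 CPM) and resting basal cells (267 and 100 CPM). KO mouse 1 had the higher value in each class, though the terminally differentiated cells, at 73.8 and 73.3 CPM, were apart by less than counting error. Hair follicle-like KCs had 52.0 and 17.6 CPM and melanocyte-like cells 22.9 and 9.48 CPM.

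Jun, the main partner of Fos in AP-1, was at 3014 and 2259 CPM in resting basal cells, 1746 and 1326 CPM in transitional cells and 1027 and 807 CPM in differentiated cells. Each of these stages was clear of the one before it. Jun did not go on down in terminally differentiated cells, with 1238 and 1103 CPM from only 44 and 50 cells. T cell-like cells had the lowest mean, with 215 and 414 CPM, and overlapped with melanocyte-like cells (393 and 349 CPM). With doublets left out the melanocyte-like mean was the lower, at 236.4 CPM against 273.4 CPM.

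Junb, often described as a Jun relative that restrains KC growth, was highest in T cell-like cells, with 743 and 578 CPM. Langerhans cell-like cells (653 and 397 CPM) and resting basal cells (626 and 383 CPM) overlapped with them. Differentiated cells still had 449 and 289 CPM. The low classes were sebaceous-like cells, with 100.5 and 74.2 CPM, and melanocyte-like cells, at 76.3 and 52.2 CPM.

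Jund, the Jun relative that most cells express without a stimulus, was at 1739 and 1310 CPM in resting basal cells, 771 and 711 CPM in differentiated cells and 337 and 307 CPM in melanocyte-like cells. At 3000 UMIs per cell Jund was still seen in 49.5% and 50.1% of melanocyte-like cells, against 13.9% and 10.6% for Fos.

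Egr1, a zinc finger transcription factor, was at 558 and 324 CPM in resting basal cells, 263 and 188.5 CPM in differentiated cells and 263 and 149 CPM in hair follicle-like KCs. T cell-like and melanocyte-like cells had from 39.4 to 55.7 CPM, under every other class. Ier2, a small nuclear protein, was at 524 and 378 CPM in resting basal cells and at 399.6 and 327.5 CPM in differentiated cells, and these overlapped. It was lower in hair follicle-like KCs, with 158 and 117 CPM, and lowest in melanocyte-like cells, with 77.6 and 74.7 CPM.

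Atf3, a stress-induced factor of the ATF family that can pair with AP-1 subunits, was at 339 and 141 CPM in resting basal cells. Differentiated cells had 73.0 and 25.8 CPM and hair follicle-like KCs 54.8 and 17.8 CPM. The resting values lay above all of the others in the same mouse. In sebaceous-like cells Atf3 rested on 11 and 28 UMIs, or 4.94 CPM (exact Poisson 95% interval 2.46 to 8.83) and 9.15 CPM (6.08 to 13.2), and in T cell-like cells on 3 and 5 UMIs. These intervals cover counting error only.

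The last members act against the response: Dusp1 is a phosphatase that switches off MAP kinases, and Zfp36 (tristetraprolin) binds AU-rich messages and speeds their decay. Dusp1 was at 176 and 108 CPM in resting basal cells, 152 and 84.6 CPM in Langerhans cell-like cells and 65.3 and 58.1 CPM in differentiated cells. Sebaceous-like cells had 3.59 and 8.82 CPM, from 8 and 27 UMIs, under both melanocyte-like values (15.8 and 12.3 CPM). With doublets left out these classes overlapped, at 3.19 and 9.14 CPM against 8.49 and 9.49 CPM. Zfp36 was at 399 and 215 CPM in Langerhans cell-like cells. Both values were above the transitional IFE cells, next in order with 156 and 69.2 CPM. Hair follicle-like KCs had 23.5 and 9.97 CPM. At 3000 UMIs per cell Zfp36 was seen in 65.0% and 44.6% of Langerhans cell-like cells, against 22.6% and 12.3% of resting basal cells and 3.07% and 2.65% of melanocyte-like cells.

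KC keratins in non-KC classes can come from free RNA that enters droplets of other cells, or from droplets that held a KC as well. These sources were not told apart. The basal keratin Krt14 was at 868 and 1412 CPM in Langerhans cell-like cells, 856 and 1282 CPM in melanocyte-like cells and 931 and 2669 CPM in T cell-like cells, against 14062 and 14910 CPM in resting basal cells. At 3000 UMIs per cell it was seen in 39.2% and 48.7% of Langerhans cell-like cells and in 30.8% and 63.2% of T cell-like cells. In all 3 classes Krt14 was higher in KO mouse 2, the mouse with the lower Fos. The part of such RNA in the low member levels was not tested. With cells called doublets left out, Fos in melanocyte-like cells was at 43.3 and 30.3 CPM, against 96.4 and 57.3 CPM with them. Within the IFE, Krt14 was at 3744 CPM in the terminally differentiated cluster, both mice pooled, against 3551 CPM in the differentiated one. The terminally differentiated cluster was also above the median of the other IFE clusters in G2/M markers (mean log2 2.89). The same held for melanocyte (1.60), hair follicle (1.36) and S phase markers (0.52), and for sebaceous and Langerhans cell markers (0.44 each). Whether RNA of other cells enters the member levels of that stage was not tested. Of the melanocyte-like cells, the larger cluster (Pmel, Dct and Ptgds leading) held 248 CPM of Krt14 and 40.1 CPM of Fos in KO mouse 1, and the smaller one (Dct, Ptgds and Pmel leading) 1919 CPM of Krt14 and 194.5 CPM of Fos.

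The first set of comparisons asks how the members vary along IFE differentiation. UMI sums per mouse and stage were compared with edgeR's quasi-likelihood test, and p-values were adjusted by Benjamini and Hochberg over 11956 genes. There is 1 sum per mouse and stage, so a p-value of this fit measures the spread between these 2 mice, pooled over the stages. The stages were drawn from the same cells. Because the mice differed in most members, the fit with the mouse as a block is given where it changes the count. Its p-values measure how far the differences between stages varied from mouse to mouse.

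**Figure D2:**
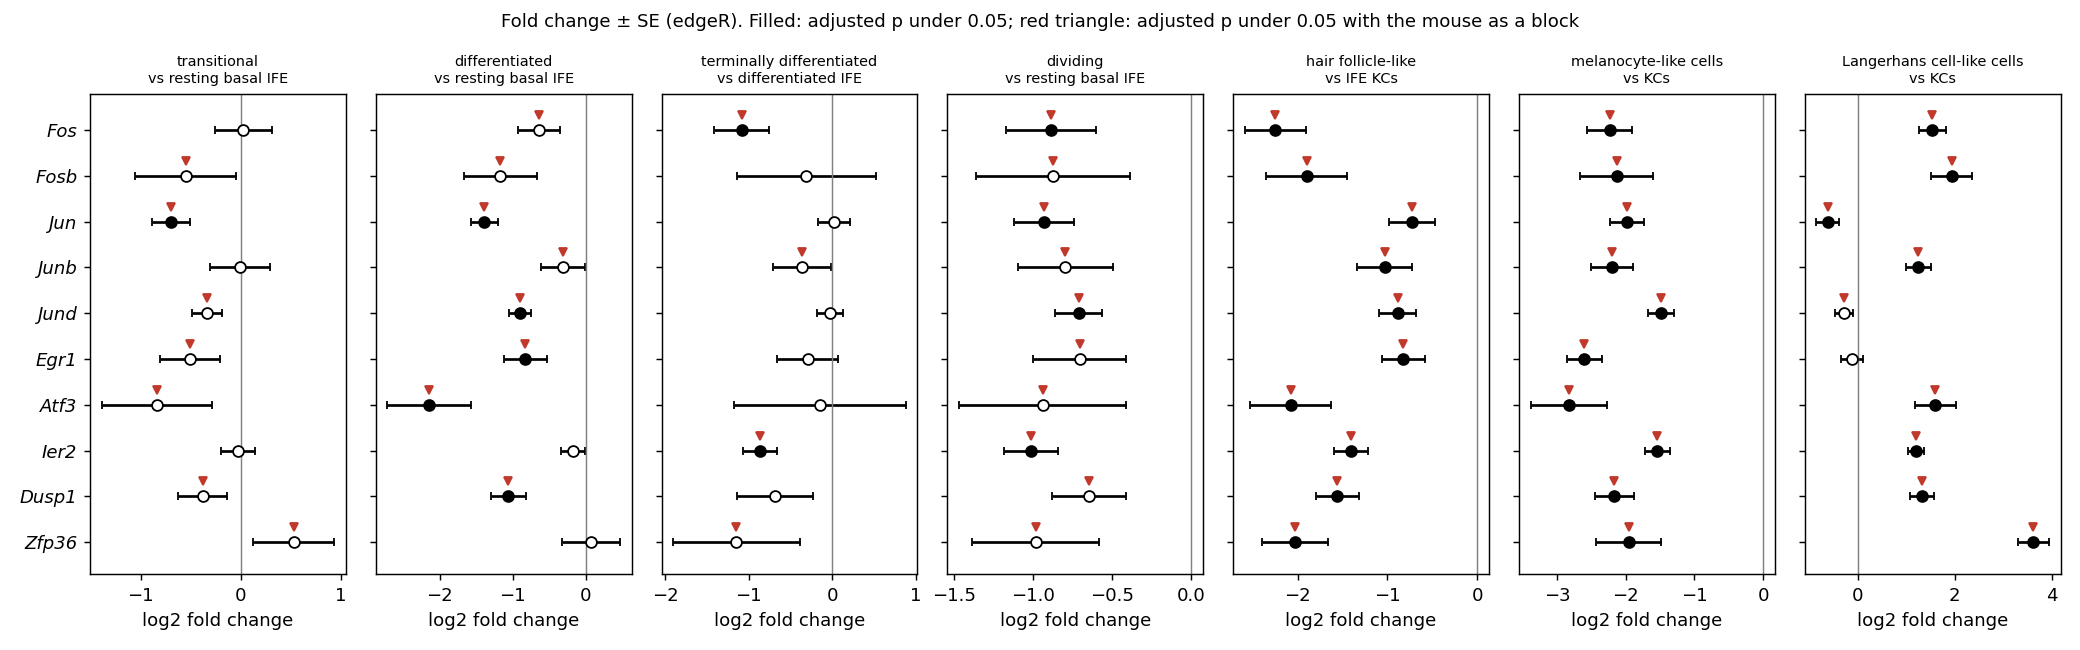
Each panel is 1 comparison and shows the log2 fold change (horizontal) of each member (vertical) as a point with its SE; filled points have an adjusted p under 0.05 and red triangles mark those under 0.05 with the mouse as a block. All 10 points of the hair follicle-like and melanocyte-like panels are filled and left of 0, and 7 of the Langerhans cell-like panel are filled and right of 0.

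From resting basal to transitional cells, which have begun to express differentiation keratins, Jun was the 1 member of 10 that was called. Its log2 fold change was −0.70 ± 0.19 (SE, adjusted p = 0.0168), and it was lower in both mice. Over all genes, 23.1% were called and 11.3% were called lower. Fos (0.02 ± 0.28), Junb (−0.01 ± 0.30) and Ier2 (−0.03 ± 0.17) had fold changes near 0, and Zfp36 had 0.53 ± 0.41. Fosb, Jund, Egr1, Atf3 (−0.84 ± 0.55) and Dusp1 were lower in both mice but missed the threshold. In the fit that blocks on the mouse, 7 members passed, against 33.2% of all genes. Of these, 6 were lower (16.2% of all genes), led by Atf3 (−0.82 ± 0.07), and Zfp36 was higher (0.53 ± 0.09, adjusted p = 0.000162, with 17.0% of all genes higher).

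From resting basal to differentiated cells 5 of the 10 members were called lower and none higher. Over all genes, 54.6% were called and 27.2% were called lower. Atf3 fell the most, by 2.14 on the log2 scale (SE 0.57, adjusted p = 0.00705). It was followed by Jun (−1.39 ± 0.19, adjusted p = 4.92e-05), Dusp1 (−1.06 ± 0.24, adjusted p = 0.00279), Jund (−0.90 ± 0.15, adjusted p = 0.000273) and Egr1 (−0.83 ± 0.30, adjusted p = 0.0323). For these 5, and also for Fos, which was not called, no value of a differentiated sum reached a value of a resting sum. The share of all genes without such overlap was not counted, so this does not set the members apart from other genes. Fos (−0.64 ± 0.29, adjusted p = 0.0744) and Fosb (−1.17 ± 0.50, adjusted p = 0.0662) missed the threshold, and Zfp36 had a fold change of 0.07 ± 0.40. Egr1 missed it in DESeq2 (adjusted p = 0.0508). The median of the 10 was −0.87, against −0.02 over all genes tested. In the blocked fit 8 members passed, all lower, against 31.2% of all genes, which left Ier2 and Zfp36 uncalled.

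From differentiated to terminally differentiated cells Fos (−1.08 ± 0.33, adjusted p = 0.0265) and Ier2 (−0.86 ± 0.21, adjusted p = 0.00794) were called lower. These were 2 of 10 members, against 27.1% of all genes called and 13.8% called lower. Jun (0.02 ± 0.19) and Jund (−0.03 ± 0.16) had fold changes near 0. The blocked fit gave 4 members, all lower, adding Junb and Zfp36, against 15.4% of all genes. This stage rests on few cells, and 0 members were called by edgeR among cells with 5 to 10% mitochondrial UMIs (16.8% of all genes), with 1 at an unadjusted p under 0.05 (Fos −0.67, adjusted p = 0.196; Ier2 −0.62, adjusted p = 0.0594). The call of Fos was also lost at clustering resolution 1.2 (−0.45, adjusted p = 0.207) and without integration (−0.76, adjusted p = 0.0575), and its fold change was −0.69 without KO mouse 1 and −1.52 without KO mouse 2.

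Dividing basal cells were compared with resting basal cells. Fos (−0.89 ± 0.29, adjusted p = 0.0479), Jun (−0.93 ± 0.19, adjusted p = 0.0037), Jund (−0.71 ± 0.15, adjusted p = 0.00537) and Ier2 (−1.01 ± 0.17, adjusted p = 0.0011) were lower in dividing cells, 4 of 10 members against 18.8% of all genes called and 6.72% called lower. The other 6 had fold changes from −0.65 (Dusp1) to −0.98 (Zfp36) and missed the threshold. In the blocked fit all 10 were lower, against 15.9% of all genes. The median of the 10 was −0.88, against −0.01 over all genes. Fos missed the threshold in DESeq2 (adjusted p = 0.0519) and among cells with 5 to 10% mitochondrial UMIs (adjusted p = 0.0686).

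Dividing cells fell into 3 clusters, and the sum of the 10 members differed among them. The cluster led by Ung, E2f1 and Rrm2, genes of the start of DNA synthesis, had 6406 and 4262 CPM. That led by Hist1h1b, Ube2c and Nusap1 had 4365 and 2849 CPM, and that led by Cdkn3, Cenpa and Hist1h2bc 4518 and 2933 CPM. In each mouse the first was the highest of the 3, and all were under the resting basal sum of 8664 and 5829 CPM. The IFE clusters without a stage name were also under that sum in both mice, so a lower sum was not particular to dividing clusters. That led by Il1r2, Ccl27a and Igfbp4 had 6797 and 4264 CPM, and that led by Ptch1, Rhoc and Krt17 5888 and 4068 CPM. The sum is weighted to Jun and Jund, the members with the most UMIs.

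The next comparison sets the KCs of the hair follicle against those of the IFE, in a fit over 7 cell types and 12455 genes. All 10 members were lower in hair follicle-like KCs, against 41.9% of all genes called and 21.5% called lower. Fos had the largest difference, −2.25 ± 0.34 (adjusted p = 3.94e-05), a fold of 4.75. Atf3 (−2.08 ± 0.45), Zfp36 (−2.03 ± 0.37) and Fosb (−1.90 ± 0.45) followed. Jun differed the least (−0.73 ± 0.26, adjusted p = 0.0305), with 1426 and 875 CPM in hair follicle-like KCs. After normalization the hair follicle-like value of KO mouse 1 was under the IFE value of KO mouse 2 for each member, so the groups did not overlap. How many of all genes did not overlap was not counted, so this too does not set the members apart from other genes. The median of the 10 was −1.48, against −0.03 over all genes. The call of Jun was lost with doublets left out (adjusted p = 0.0794), at clustering resolution 1.2 (adjusted p = 0.0601) and in DESeq2 (adjusted p = 0.0954), which also left Junb (adjusted p = 0.0536) and Egr1 (adjusted p = 0.0596) uncalled.

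The hair follicle-like cells themselves were not uniform. Fos was at 126 and 72.1 CPM in the cluster led by Krt28 and Krt35, keratins of the hair shaft and root sheath, which was the lowest in both mice. It was at 255 and 129.5 CPM in the cluster led by Cenpf and Hist1h1b. Jun was at 2156 and 1630 CPM in the cluster led by Shh, Fn1 and Sp5, between the dividing and the resting basal IFE cells of the same mouse, and Fos was at 217 and 108 CPM there. In that cluster Atf3 was at 140 and 41.4 CPM, against 28.6 and 8.67 CPM in the cluster led by Sfrp1 and Tbx1. The cells named IFE also held a cluster led by the follicle factor Lhx2, with Fos at 172 and 84.5 CPM. With only the 5 named IFE stages in the sum, all 10 members were again lower in hair follicle-like KCs, against 22.5% of all genes.

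Melanocyte-like cells, named for the pigment cells that derive from the neural crest, had less of every member than KCs, taken as the mean of IFE and hair follicle-like KCs on the log scale. All 10 were lower, against 54.2% of all genes called and 27.6% called lower. Fold changes ran from −1.49 ± 0.19 for Jund (adjusted p = 4.52e-06) to −2.83 ± 0.56 for Atf3 (adjusted p = 0.000347), with −2.60 ± 0.26 for Egr1 and −2.24 ± 0.33 for Fos. In the melanocyte-like cells 22.2% and 21.5% had none of the 10 members among 3000 UMIs, against 0% and 0.0689% of resting basal cells. With cells called doublets left out the difference was larger, at −3.26 for Fos and −4.14 for Atf3. Against hair follicle-like KCs alone 8 members were called lower (26.6% of all genes), and Fosb and Zfp36 were not.

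Langerhans cell-like cells differed in which members were high. Against the same mean of KCs 8 of 10 members were called (57.3% of all genes), 7 of them higher (28.7% of all genes) and 1 lower (28.6%). Zfp36 had the largest difference, 3.62 ± 0.32 (adjusted p = 3.69e-08), a fold of 12.3. Fosb (1.94 ± 0.42), Atf3 (1.60 ± 0.42), Fos (1.53 ± 0.28), Dusp1 (1.33 ± 0.24), Junb (1.25 ± 0.26) and Ier2 (1.21 ± 0.16) were higher too, whereas Jun was lower (−0.62 ± 0.23, adjusted p = 0.03). The call of Jun was lost under 5 of the alternatives in edgeR or DESeq2, with adjusted p from 0.0551 (DESeq2 size factors) to 0.114 (DESeq2), and its fold change without KO mouse 1 was −0.38. Among cells with 5 to 10% mitochondrial UMIs the calls of Atf3 (adjusted p = 0.0627) and Dusp1 (adjusted p = 0.0649) were lost. The calls differed with the KCs taken for comparison. Against IFE KCs alone 4 were called (53.8% of all genes): Zfp36 (2.60) and Ier2 (0.51) were higher, Jun (−0.98) and Jund (−0.73) were lower, and Fos had 0.41 (adjusted p = 0.313). Against hair follicle-like KCs alone 7 were called, all higher (29.5% of all genes). In the fit that blocks on the mouse, 9 passed against the mean of KCs (59.4% of all genes), adding Jund as lower (−0.27 ± 0.10, adjusted p = 0.0285).

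Dermal-like, T cell-like, sebaceous-like and Merkel cell-like cells were few and were not put to a test. T cell-like cells had much Junb beside little Jun (215 and 414 CPM), Egr1 (41.2 and 55.7 CPM) and Atf3 (5.37 and 12.1 CPM). Sebaceous-like cells had Ier2 at 243 and 174 CPM but Dusp1 and Atf3 under 10 CPM in both mice. Merkel cell-like cells, the touch receptors, had Jund at 1096 and 1272 CPM and Ier2 at 78.7 and 108 CPM.

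The 2 mice have the same labels, yet the members differed between them. In resting basal cells all 10 members were higher in KO mouse 1, with a median fold of 1.64 and a log2 range from 0.39 to 1.38. Over all genes at 20 CPM or more the median log2 ratio there was 0.008, and 0.545% of them reached the median of the members. All 10 were higher in KO mouse 1 in dividing (median fold 1.71), transitional (1.48) and differentiated (1.37) IFE cells too. The same held in hair follicle-like KCs (1.72), melanocyte-like (1.29), Langerhans cell-like (1.64) and dermal-like cells (1.60). In sebaceous-like cells 7 of 10 were higher, in T cell-like cells 6, and in terminally differentiated cells 4. The median of the members was reached by 8.97% of all genes at 20 CPM or more in dermal-like and 7.17% in sebaceous-like cells. In T cell-like cells this share was 47.3% and in terminally differentiated cells 53.9%. Elsewhere it ran from 0.214% (hair follicle-like) to 1.84% (Langerhans cell-like). With 1 library per mouse there is no test of the difference between the mice, and mouse, library and preparation cannot be told apart.

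**Figure D3:**
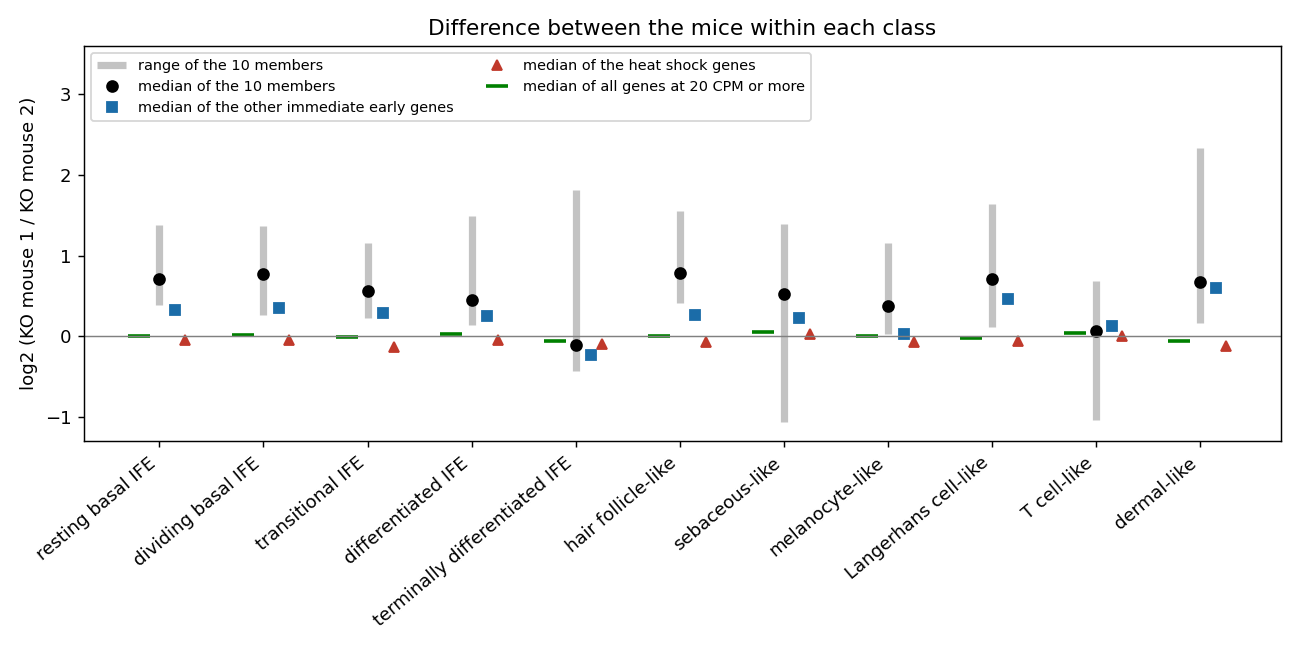
The log2 ratio of KO mouse 1 to KO mouse 2 (vertical) is plotted for each class (horizontal), as the range (grey bar) and median (black point) of the 10 members beside the medians of other immediate early genes (blue square) and heat shock genes (red triangle). The black points lie above 0 except in terminally differentiated cells (−0.10), while the heat shock medians lie between −0.14 and 0.03.

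The difference between the mice was not shared by all stress genes. Of 36 other immediate early genes tested in the stage fit, 32 were higher in KO mouse 1 in resting basal cells, with a median log2 ratio of 0.32. Of 14 heat shock genes 4 were higher, with a median of −0.04, and the summed level of the 14 was 5479 CPM in KO mouse 1 and 5515 CPM in KO mouse 2. That sum is weighted to Hsp90ab1, which had 3329 and 3308 CPM after normalization. The summed members were at 8664 and 5829 CPM in the same cells.

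The share of mitochondrial UMIs, another common mark of cell quality, was set beside the members. By class, the median mitochondrial share was 6.35% and 5.70% in resting basal cells, 5.51% and 5.19% in differentiated cells, 5.17% and 4.72% in hair follicle-like KCs and 4.38% and 3.96% in Langerhans cell-like cells. Resting basal cells were thus highest in both measures among the IFE stages. Langerhans cell-like cells had a lower share than differentiated IFE and hair follicle-like cells, together with a summed member level of 4750 and 3134 CPM. Melanocyte-like cells had 5.63% and 5.09%, close to the differentiated IFE cells, with a summed level of 1093 and 917.5 CPM against 3929 and 3040 CPM.

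**Figure D4:**
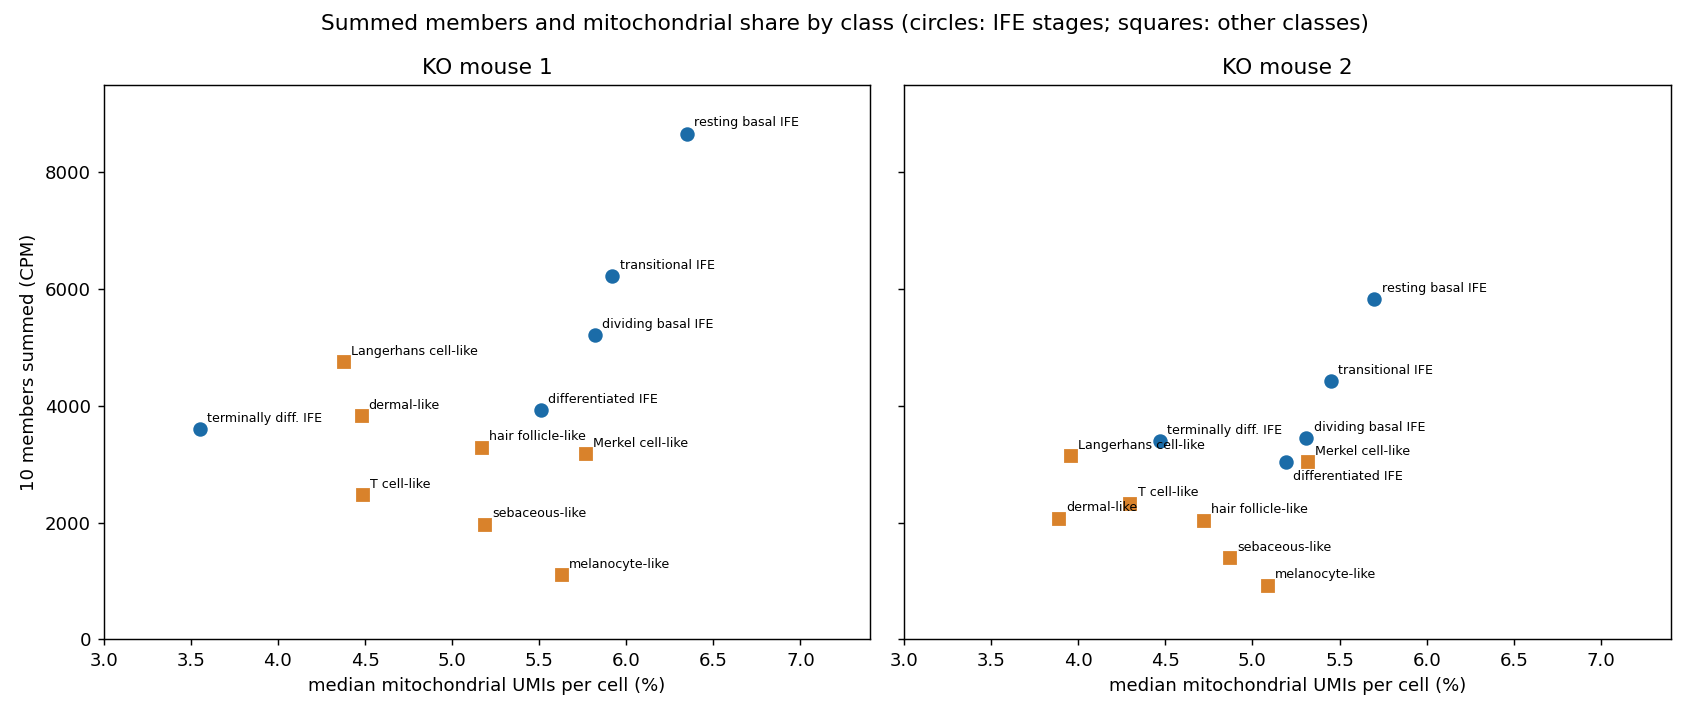
The summed CPM of the 10 members (vertical) is plotted against the median mitochondrial share per cell in percent (horizontal) for 12 classes in each KO mouse; circles are IFE stages and squares are other classes. Resting basal IFE is at the upper right (6.35% and 8664 CPM in KO mouse 1), and melanocyte-like cells lie at the bottom near the middle of the axis (5.63% and 1093 CPM).

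Within IFE stages the summed members had no single order by mitochondrial share. Resting basal cells under 5% had 11271 and 6155 CPM (48 and 265 cells), above the 8531 and 5767 CPM of those from 5 to 10% (831 and 1245 cells), and differentiated cells had 4171 and 3343 CPM against 3848 and 2871 CPM. The order was the other way in both mice in the other 3 stages. Dividing cells had 4260 and 3031 CPM under 5% and 5402 and 3652 CPM from 5 to 10%, and transitional cells 5608 and 4380 CPM against 6295 and 4441 CPM. Terminally differentiated cells had 2992 and 3307 CPM (34 and 29 cells) against 4545 and 3490 CPM (10 and 21 cells). All IFE cells together had 4922 and 3661 CPM under 5% and 6040 and 4217 CPM from 5 to 10%. The share of cells under 5% ran from 5.46% and 17.5% of resting basal to 77.3% and 58.0% of terminally differentiated cells. Hair follicle-like KCs had 3325 and 1963 CPM under 5% and 3256 and 2160 CPM from 5 to 10%. With only cells under 5%, 7 of the 10 members were called lower in hair follicle-like than in IFE KCs (12.7% of all genes), Fos at −1.83 (adjusted p = 0.000336). With only cells from 5 to 10% all 10 were called lower (20.6% of all genes). Barcodes removed for 10% or more mitochondrial UMIs, of which there were 2777 and 3315, had summed members of 5027 and 4001 CPM. These values were under the resting basal cells but above all kept cells together (4295 and 2864 CPM). The median mitochondrial share of the removed barcodes was 32.2% and 27.7%, and mitochondrial UMIs are part of the total that CPM is scaled to.

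Across single cells the members varied together, given here as a description with no test. In resting basal cells thinned to 3000 UMIs (875 and 1451 cells) all 45 pairs of members had a Pearson r above 0 in both mice, with medians of 0.144 and 0.116. The highest in both mice was that of Fos and Fosb, at 0.291 and 0.271. With all UMIs the medians were 0.228 and 0.23, so the size of r moves with depth, and values of this size in sparse counts are weak. The mean of the standardized members had an r of −0.107 and −0.0181 with the mitochondrial share of the same thinned cells, and of −0.112 and 0.00365 on all UMIs. In hair follicle-like cells, where levels were lower, the medians were 0.133 and 0.0849 for thinned cells. There the mean of the members had an r of −0.00126 and 0.0874 with the mitochondrial share on thinned cells and of 0.0348 and 0.122 on all UMIs.

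**Figure D5:**
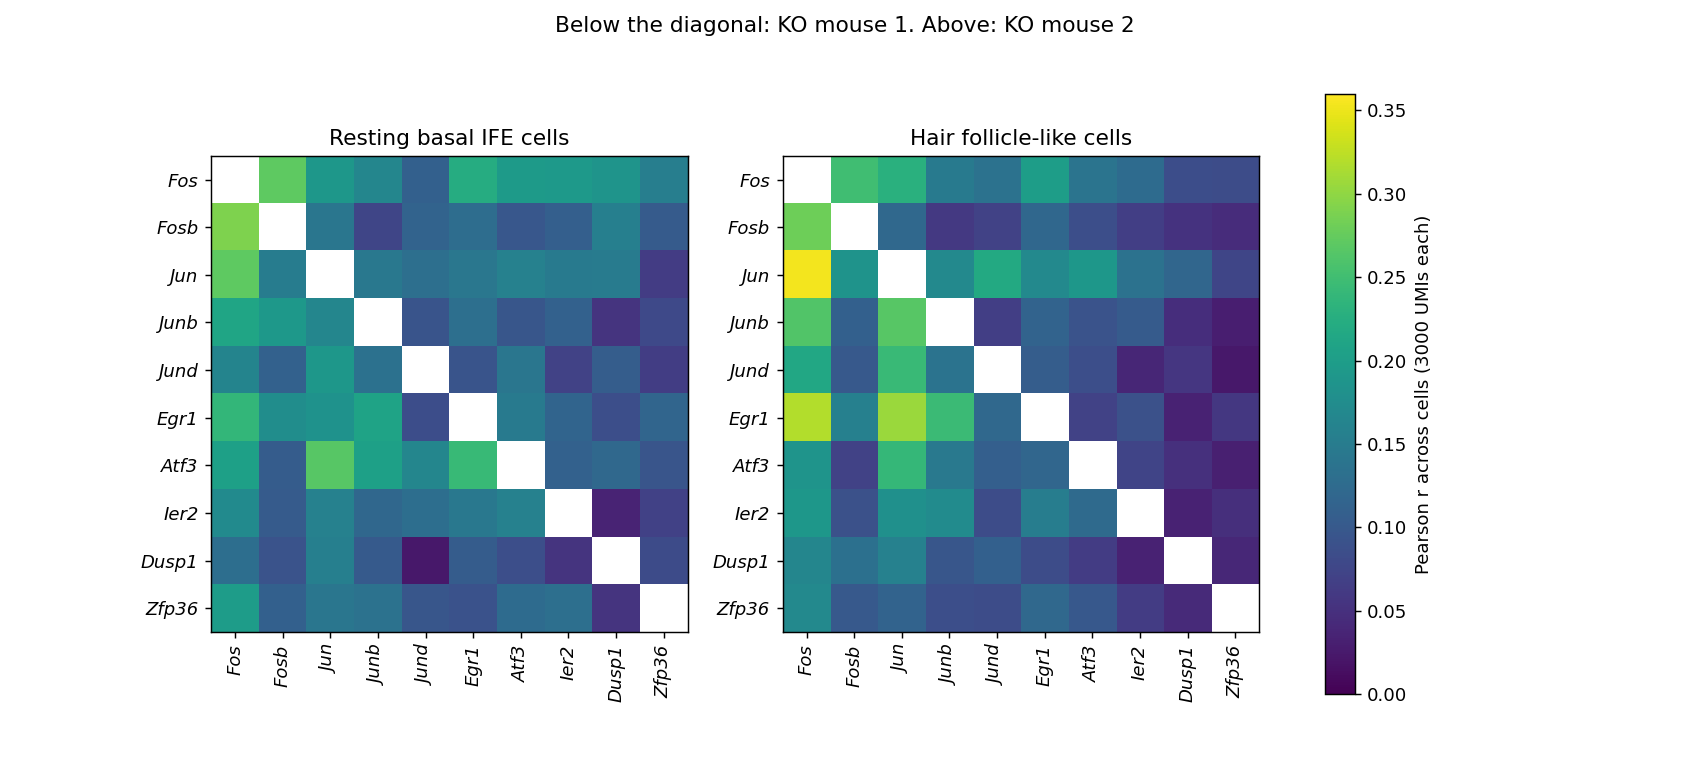
Each square is the Pearson r of 2 members (both axes) across cells thinned to 3000 UMIs, in resting basal IFE cells (left) and hair follicle-like cells (right), below the diagonal for KO mouse 1 and above it for KO mouse 2. All squares are above 0, and the row and column of Fos hold many of the brightest, Fos with Fosb (0.291 and 0.271) on the left and Fos with Jun in KO mouse 1 (0.353) on the right.

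The non-member gene most like the mean of the members across resting basal cells was Btg2, an antiproliferative immediate early gene, with r of 0.456 and 0.478 on all UMIs and 0.355 and 0.346 on thinned cells. Sfn (0.324 and 0.303), Neat1 (0.267 and 0.257), Gadd45b (0.246 and 0.29), Socs3 (0.3 and 0.241) and Nfkbia (0.222 and 0.263) followed. Gm20186, Ppp1r15a, Krt15 and Ccnl1 completed the 10 nearest genes, of which Krt15 is a basal keratin. Over all genes at 20 CPM or more the median r was −0.000645 and 0.00515, for 17 other immediate early genes 0.132 and 0.139, and for 9 heat shock genes 0.0292 and 0.0441. On thinned cells the medians were 0.0771 and 0.0759 for other immediate early genes at that level and 0.00351 and 0.0228 for heat shock genes, so these too were smaller at equal depth. Among the 10 nearest genes on thinned cells, Cyr61 and Klf6 stood in place of Ppp1r15a and Ccnl1.

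Across the 24 sums of 12 classes and 2 mice, which share libraries, the members did not follow a single pattern. Jun was nearest to Egr1 (r = 0.951, log2 of CPM + 10) and far from Zfp36 (0.143), and Junb was nearest to Fosb (0.857) and Dusp1 (0.849). The non-member genes nearest to Jun were Mef2a (0.904), Fras1 (0.904) and Cecr2 (0.886), and those nearest to Zfp36 were Fkbp5 (0.815), Fam69a (0.76) and Il6ra (0.759). For Fosb they were Btg2 (0.843), Socs3 (0.837) and Ppp1r15a (0.804), which are themselves induced early. Fos and Atf3 shared Rnase4 as their nearest non-member (0.844 and 0.838).

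The other genes of the response were followed by fixed lists. Of 40 other immediate early genes 39 were found. In differentiated against resting basal cells 10 were higher and 9 lower of 36 tested (12 and 11 in the blocked fit), a share close to the 54.6% of all genes called, with a median log2 fold change of −0.10. Cyr61, a matricellular gene, fell (−3.36 ± 0.30, adjusted p = 1.32e-06), whereas Cebpb, a factor of KC differentiation (2.32 ± 0.13, adjusted p = 1.77e-08), and Egr2, a relative of Egr1 (2.54 ± 0.30, adjusted p = 1.48e-05), rose. In hair follicle-like against IFE KCs 9 were higher and 15 lower of 37 (10 and 20 in the blocked fit, and 41.9% of all genes called in the main fit), with Myc (−2.46 ± 0.21) and Nfkbiz (−1.91 ± 0.26) lower and Ctgf (1.86 ± 0.18) higher. In Langerhans cell-like cells 21 were higher and 4 lower of 37 (21 and 6 in the blocked fit), against 28.7% and 28.6% of all genes, among them Nr4a2 (4.23 ± 0.49), Dusp2 (4.15 ± 0.38) and Ier3 (3.23 ± 0.21), all higher. In melanocyte-like cells 12 were higher and 19 lower (13 and 21 in the blocked fit), against 54.2% of all genes called in either direction, with Btg2 (−2.88 ± 0.36) and Egr2 (−2.43 ± 0.43) lower and Dusp4, a MAP kinase phosphatase, higher (5.01 ± 0.13).

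Heat shock and unfolded protein response genes were counted in the same way. In differentiated against resting basal cells, where 54.6% of all genes were called and 27.2% were lower, 5 of 14 heat shock genes were higher and 6 lower in both fits, with the small heat shock genes Hspb1 (3.69 ± 0.12, adjusted p = 4.26e-10) and Hspb8 (2.48 ± 0.23) and the inducible Hspa1a (2.02 ± 0.11) higher. Of 10 ATF4 and unfolded protein response genes 7 were higher and 2 lower in both fits, with Herpud1 at 3.25 ± 0.25 (adjusted p = 2.79e-07) and 139 and 93.0 CPM in differentiated cells after normalization, against 14.98 and 9.97 CPM in resting basal cells. In Langerhans cell-like cells 10 of 14 heat shock genes were lower and 1 was higher. Of those lower, Hspa1b had −2.29 ± 0.46, with only 4.72 and 0.60 CPM in Langerhans cell-like cells after normalization. The blocked fit called 11 of the 14 lower, and 28.6% of all genes were lower in the main fit. In hair follicle-like KCs 4 were higher and 5 lower (4 and 6 in the blocked fit), against 41.9% of all genes called, with a median of −0.04.

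The last list holds partners and upstream factors of AP-1. In transitional cells 5 of 17 were lower (6 in the blocked fit, and 11.3% of all genes in the main fit), led by Atf7, Mapk8 (JNK1, a kinase of Jun) and Atf2 (each −0.59 or −0.58), and in differentiated cells 9 were lower and 3 higher (11 and 3 in the blocked fit, and 54.6% of all genes called in the main fit), with Atf2 at −1.03 ± 0.13 and Mapk8 at −0.99 ± 0.14. In dividing cells Mafg (−0.49 ± 0.09) was the 1 gene called of 17, against 18.8% of all genes, and the blocked fit called 4, all lower. Egfr, the receptor of epidermal growth factor, was higher in hair follicle-like than in IFE KCs (0.34 ± 0.12, adjusted p = 0.0328) and lower in melanocyte-like (−2.51 ± 0.16) and Langerhans cell-like cells (−2.51 ± 0.24).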

How the data were processed

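Single-cell RNA was measured in the epidermis of 2 Chrm3 KO mice. Per the labels and the submitters' processing notes, the authors made the deposited files with Cell Ranger 3.0.2 on mm10, and the values are raw counts of UMIs without normalization. The labels name version 1 of the Chromium 3' chemistry, whereas the paper's methods name version 3.1. A strand setting for counting is not given in the sources used here.

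Cells had to have from 900 to 7700 genes and a mitochondrial share under 10%, which 19488 of 26683 barcodes met. Normalized counts were integrated over 30 dimensions and 2000 variable genes in Seurat 5.3.0 (R 4.3.3, Louvain resolution 0.8). The 94 genes of the member and stress lists were held out of the variable genes and the naming, and a cluster's name needed at least 3 enriched markers. Because names were rebuilt from markers, classes may differ from those of the study. The members and lists were chosen with earlier results of these data known. Scrublet (Scanpy 1.11.5) called 147 (1.93%) and 374 (3.15%) cells doublets at a score of 0.25, a limit set after its automatic threshold had called 2 and 475. They were kept in the main sums.

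UMIs were summed per mouse and class and tested in edgeR 4.0.16 (TMM, filterByExpr, quasi-likelihood F-test, two-sided, Benjamini-Hochberg adjustment over all genes, threshold 0.05). The fit of 10 stage sums had 5 residual degrees of freedom and that of 14 cell type sums 7. SEs were derived from the fold change and its F value. The replicate number stands for the animal, which pairs the sums. The deviations of the mice correlated between classes with r from 0.0297 to 0.698 over 10 pairs of stages and from 0.0201 to 0.606 over 21 pairs of types. The code was tested on simulated data with 200 genes changed by 1 on the log2 scale, of which 44.5% were recovered for terminally differentiated cells, 80.5% for Langerhans cell-like cells and from 91% to 99% in the other comparisons. The simulated sums were drawn without a difference between the mice, which the real sums have, so these shares need not hold for the data.

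All members were named. From each list, at most the 3 genes with the largest called fold change, with 1 direction in both mice and at least 10 CPM in a class compared, were named per comparison. Genes alike in pattern were the 10 (across cells) or 3 (across sums, log2 of CPM + 10) with the highest r among genes with a mean of at least 20 CPM. Alternatives were a block on the mouse, DESeq2 1.42.0, DESeq2 size factors in edgeR, no low-count filter, doublets left out, under 5% mitochondrial UMIs, resolution 1.2, no integration and each mouse left out. The range of 5 to 10% mitochondrial UMIs, the named stages alone and IFE or hair follicle-like KCs alone were added after seeing the data.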

Additional observations from a re-analysis of the deposited data

How the results depend on the processing

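Each class has 2 sums, from 1 library per mouse of 1 genotype. The p-values of the main fit thus measure the spread between these mice, pooled over the classes of a fit. Those of the blocked fit measure how far the class differences varied from mouse to mouse. Of the 70 fold changes (10 members in 7 comparisons), 40 were called, and no called fold change turned its direction in any alternative. The difference between the mice was alike in some pairs of classes and not in others. Its r ran from 0.0297 to 0.698 between stages and from 0.0201 to 0.606 between cell types. As the numbers mark the same animal, the block on the mouse is a paired analysis. In that paired fit 7 members were called in transitional, 8 in differentiated, 4 in terminally differentiated and 10 in dividing cells, with 4124 genes called in dividing cells against 2244. The block changed no call of a member in hair follicle-like or melanocyte-like cells. Without a filter on low counts 7, 8, 5 and 10 members were called in the same 4 comparisons. In transitional cells that fit called 3114 genes, against 2760 in the main fit. Its shares of all genes are not given, so these member counts cannot be set against a background.

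With only cells under 5% mitochondrial UMIs the genes called fell to 569 in transitional (2760 in all cells), 3343 in differentiated (6522), 1832 in terminally differentiated (3238), 707 in dividing (2244) and 2922 in hair follicle-like cells (5221), while 8 members were called in dividing cells. With only cells from 5 to 10% they were 1897 in terminally differentiated cells, where 0 members were called, and 3687 in Langerhans cell-like cells (7139). These sums hold fewer cells. The number of genes tested in the stages under 5% is not given, so the 8 members have no share of all genes beside them. In terminally differentiated cells resolution 1.2 called 1 member and 5623 genes, and clustering without integration 1 member; the latter gave no transitional cluster and so no value there. DESeq2 called 1, 4, 2, 3, 7, 10 and 7 members in the 7 comparisons, against 1, 5, 2, 4, 10, 10 and 8 by edgeR. The share of all genes called by DESeq2 is not given, so these counts only set the tools side by side.

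With a mouse left out, sign changes of members uncalled in the main fit were not counted. The mice did differ in direction for some of these. Zfp36 after normalization was at 108.2 CPM in differentiated and 112.7 CPM in resting basal cells of KO mouse 1, but at 64.17 and 53.27 CPM in those of KO mouse 2. In the other alternatives, the fold changes that turned sign were all uncalled in the main fit. In transitional cells they were Fos at −0.45 (under 5%) and Junb at 0.00739 (block), 0.0465 (5 to 10%) and 0.0469 (resolution 1.2), and Ier2 at 0.014 (resolution 1.2). In terminally differentiated cells they were Jun at −0.021 (no filter) and −0.28 (under 5%), Jund at 0.0179 (doublets left out), 0.16 (under 5%) and 0.0677 (no integration), Fosb at 0.43, Egr1 at 0.0419 and Atf3 at 0.39 (5 to 10%), and Atf3 at 0.93 (resolution 1.2), 0.011 (DESeq2) and 0.00333 (no integration). In Langerhans cell-like cells they were Egr1 at 0.11 (under 5%) and, against hair follicle-like KCs alone, Jund at 0.16 and Egr1 at 0.30. Against IFE KCs alone 4 members were called there. The cause of these changes was not tested.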

Other observations

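Some clusters of all cells took no part in a comparison by themselves, and their values are given without explanation. A cluster led by Ncam1, Bdnf and Sema3e had summed members of 4489 CPM in KO mouse 1 and 2253 CPM in KO mouse 2, and one led by Krt79, Bbox1 and Krt75 had 4161 and 3120 CPM. Among IFE cells, an unnamed cluster led by Apoe, Lpl and Pthlh had 6537 and 4261 CPM. A resting basal cluster led by the interferon-induced genes Iigp1, Mx1 and Isg15 had 6938 and 5444 CPM, against 8664 and 5829 CPM in all resting basal cells. Barcodes removed by the limits on genes alone, 432 and 671 in number, had 3909 and 2661 CPM.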
